A study of Mus musculus with 7 samples.

Results

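Gfra1, Ret, Zbtb16, Etv5, Id4, Nanos2, Nanos3, Bcl6b and Sall4, 9 genes known for their roles in spermatogonial stem cells, were followed in mouse spermatocyte chromatin. They were chosen by name as the rows of the H3K27me3 gene-body count files at postnatal days 17 (P17) and 12 (P12), and are 9 of 23530 gene entries. The samples were spermatocytes of wild-type CD1 mice at P17 and at P12, prepared by digesting testes with trypsin and collagenase and fractionating the cells on 5% Percoll. Chromatin was fixed with formaldehyde, sonicated and immunoprecipitated with an antibody to H3K27me3. Per the labels, the P17 count file pools 2 replicates, while the P12 label names no replicate and was taken as 1. There is thus 1 set of values per stage, no spread between replicates and no test. The other samples of the 7 in the series, which are H3K4me3 at both stages, EED at P17 and inputs, were not analysed here.

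The files count reads of a histone mark and not RNA, so cell type markers cannot check the label of the fraction. H3K27me3 reads over 8 spermatocyte genes summed to 149 CPM at P17 and 175 CPM at P12, where CPM are reads scaled to the total of each file, and those over 8 measured Sertoli cell genes to 554 and 383 CPM at P17 and P12. Leydig cell genes summed to 99.2 CPM at P17 and 94.0 CPM at P12 over 6 genes, and spermatid genes to 10.5 CPM at both stages over 5 genes. None of the measured genes was at 0 reads in either file. Genes with under 20 reads over both files had been left out beforehand, so this count says little. Past 1.5-fold higher at P17, beyond counting error, lay 5 of 8 Sertoli cell genes and 0 of 8 spermatocyte genes, beside 6.67% of all genes, and the part of cell composition in the results below was not tested. A mark on fewer cells and less of the mark per cell cannot be told apart in these bulk samples.

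H3K27me3 is the repressive histone mark written by Polycomb repressive complex 2, and it typically gathers at silent genes with CpG-rich promoters. Spermatogonial stem cells renew themselves in response to GDNF from Sertoli cells, which is bound by the coreceptor GFRA1 and signals through the receptor tyrosine kinase RET. Downstream of this signal lie the transcription factors ETV5, BCL6B and ID4, while the zinc finger factors ZBTB16 (PLZF) and SALL4 and the RNA-binding proteins NANOS2 and NANOS3 maintain the undifferentiated state. Most of these genes are turned down as germ cells differentiate and enter meiosis.

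Promoter sequences of 5 of the 9 genes were taken from RefSeq (build GRCm38.p6), from 250 bases before to 50 bases after each start. Ret, Zbtb16, Bcl6b and Sall4 had no entry in that table. The promoters of Id4 and Nanos2 are shown because they hold the most and the fewest CG dinucleotides among the 5 genes with a sequence. CG is in capitals. Id4 lies on the plus strand at chr13:48260866-48261165 and Nanos2 on the plus strand at chr7:18987274-18987573.
Id4: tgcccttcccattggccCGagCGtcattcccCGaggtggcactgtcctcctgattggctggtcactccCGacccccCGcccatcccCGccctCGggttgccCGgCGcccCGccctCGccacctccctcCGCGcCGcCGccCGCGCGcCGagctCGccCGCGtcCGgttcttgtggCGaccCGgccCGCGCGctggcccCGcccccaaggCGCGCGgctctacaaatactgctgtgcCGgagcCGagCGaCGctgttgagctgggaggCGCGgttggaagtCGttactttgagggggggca
Nanos2: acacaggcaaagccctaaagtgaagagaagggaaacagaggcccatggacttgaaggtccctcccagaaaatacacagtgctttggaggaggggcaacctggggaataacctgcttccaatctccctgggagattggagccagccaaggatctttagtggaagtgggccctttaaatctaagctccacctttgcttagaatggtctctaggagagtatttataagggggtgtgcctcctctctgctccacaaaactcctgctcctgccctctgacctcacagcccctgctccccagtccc

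CG was counted in these 300 bases; the motif reads the same on both strands. Id4 held 39 CG, a count reached by 4.45% of the 32851 promoters in the table, and the richer of 2 Etv5 entries held 37, reached by 5.58%. Gfra1 held 12 (39.6% of promoters had as many or more) and Nanos3 held 3 (76.7%). Nanos2 held 0, as did 5.43% of promoters. The group therefore spans CG-rich and CG-free starts.

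Between P17 and P12 the share of H3K27me3 reads over the stem cell genes differed little. The 9 genes together held 22259 of 26664736 reads at P17 and 12589 of 13462873 reads at P12, or 0.0835% and 0.0935% of all reads at P17 and P12. This is a log2 ratio P17/P12 of -0.16 (95% interval -0.20 to -0.13). Gfra1 and Zbtb16 supplied 68.7% of these reads at P17 and 73.7% at P12, and without them the other 7 genes gave 0.09 (0.03 to 0.15). The summed ratio thus rests on these 2 genes. All intervals of ratios are exact conditional 95% intervals and cover counting error only. Levels of different genes were not compared, because reads were not divided by gene length and long genes gather more of them.

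Gfra1, the GDNF coreceptor gene, had 349 CPM at P17 (9303 reads) and 405 CPM at P12 (5452 reads). Its log2 ratio was -0.22 (-0.26 to -0.17), with an interval wholly below a ratio of 1. Ret, the signalling receptor gene, had 83.7 CPM at P17 (2231 reads) and 89.7 CPM at P12 (1207 reads), a log2 ratio of -0.10 (-0.20 to 0.00). Gfra1 was lower at P17 beyond counting error, and Ret was not. The Ret ratio exceeded that of Gfra1 by 0.12 (0.00 to 0.23), a difference whose interval included 0 once widened for all 36 pairs of the group (-0.07 to 0.30).

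Of the 3 factors downstream of GDNF, Bcl6b had a ratio clear of 1. Bcl6b, which encodes a BTB zinc finger repressor, had 44.0 CPM at P17 (1174 reads) and 31.3 CPM at P12 (422 reads). Its log2 ratio of 0.49 (0.33 to 0.65) was the highest of the 9, a 1.40-fold difference (1.26 to 1.57). Etv5, an ETS factor gene, had 50.03 CPM at P17 (1334 reads) and 52.9 CPM at P12 (712 reads), a log2 ratio of -0.08 (-0.21 to 0.05). Id4, whose protein blocks DNA binding by basic helix-loop-helix factors, had 7.65 CPM at P17 (204 reads) and 7.43 CPM at P12 (100 reads), a log2 ratio of 0.04 (-0.31 to 0.40). Neither Etv5 nor Id4 differed between the libraries beyond counting error. Bcl6b stood above Etv5 by 0.57 on the log2 scale (0.36 to 0.78).

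The zinc finger factors of the undifferentiated state stood on opposite sides. Zbtb16 had 224 CPM at P17 (5984 reads) and 285 CPM at P12 (3831 reads), and its log2 ratio of -0.34 (-0.40 to -0.28) was the lowest of the 9. Sall4 had 70.8 CPM at P17 (1889 reads) and 59.5 CPM at P12 (801 reads), a log2 ratio of 0.25 (0.13 to 0.37). The ratio of Sall4 exceeded that of Zbtb16 by 0.59 (0.46 to 0.73). This difference between 2 genes does not depend on how the libraries are scaled to each other.

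The RNA-binding protein genes had few reads. Nanos2, a translational repressor gene of stem cells, had 2.44 CPM at P17 (65 reads, exact Poisson 95% interval 1.88 to 3.11 CPM) and 2.45 CPM at P12 (33 reads, 1.69 to 3.44 CPM). Nanos3, needed for primordial germ cell survival, had 2.81 CPM at P17 (75 reads, 2.21 to 3.53 CPM) and 2.30 CPM at P12 (31 reads, 1.56 to 3.27 CPM). The log2 ratios were -0.01 (-0.63 to 0.64) for Nanos2 and 0.28 (-0.33 to 0.94) for Nanos3. Ratios within these intervals could not be told from 1 at this depth.

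**Figure D1:**
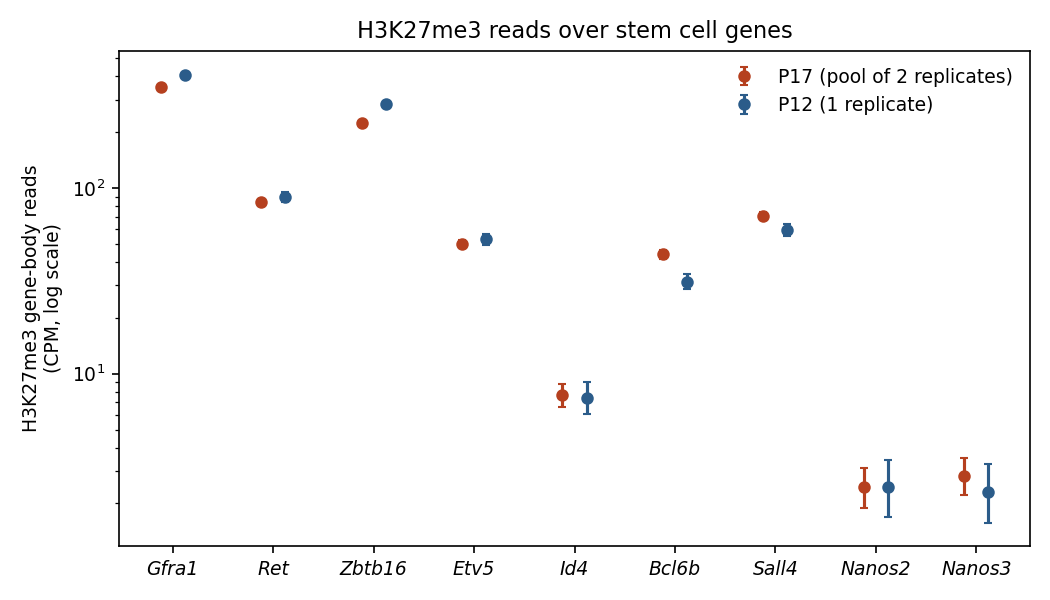
H3K27me3 gene-body reads (CPM, log scale) of the 9 stem cell genes at P17 (left point, red) and P12 (right point, blue), with exact Poisson 95% intervals. Gfra1 and Zbtb16 lie lower at P17, at 349 against 405 and 224 against 285 CPM, Bcl6b and Sall4 lie higher, at 44.0 against 31.3 and 70.8 against 59.5 CPM, and levels of different genes are not comparable because gene length differs.

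As a group, the 9 genes scattered around the ratio of the typical gene. All 9 had at least 20 reads over both files, and their median log2 ratio was -0.01, against -0.08 over all 21808 genes with 1 entry and at least 20 reads. The central 80% of all genes spanned -0.34 to 0.47, and the 9 genes spanned -0.34 to 0.49. Past 1.5-fold with an interval excluding a ratio of 1 lay 0 of the 9 genes higher and 0 lower at P17, against 6.67% and 1.39% of all genes in the 2 directions, so the counts are near the background. At 2-fold the counts were also 0 and 0 (2.57% and 0.335% of all genes). At a lower threshold, a log2 ratio of 0.32 in size, 1 gene was higher (Bcl6b; 11.9%) and 1 lower (Zbtb16; 6.16%). The interval lay above a ratio of 1 for 2 genes (16.9%) and below it for 2 (21.2%). Intervals lay wholly above the all-gene median for 2 genes, Bcl6b and Sall4 (21.2% of all genes), and wholly below it for 2, Gfra1 and Zbtb16 (10.1%). For the other 5 genes the interval spanned the all-gene median.

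Within the group the ratios differed by more than counting error. The interval of the difference between 2 genes excluded 0 in 16 of 36 pairs, and in 11 pairs when widened for the number of pairs (Bonferroni). In these 11 pairs Bcl6b and Sall4 each stood above Etv5, Ret, Gfra1 and Zbtb16, and Etv5, Ret and Gfra1 each stood above Zbtb16. None of them held Id4, Nanos2 or Nanos3, which had the fewest reads. The widest of the 11 was Bcl6b over Zbtb16, at 0.83 (0.66 to 1.01). The same counts for pairs of other genes were not computed. The ratios of the group, from -0.34 to 0.49, spanned about as much as the central 80% of all genes, from -0.34 to 0.47. Differences of this kind are thus not shown to be particular to the stem cell genes.

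**Figure D2:**
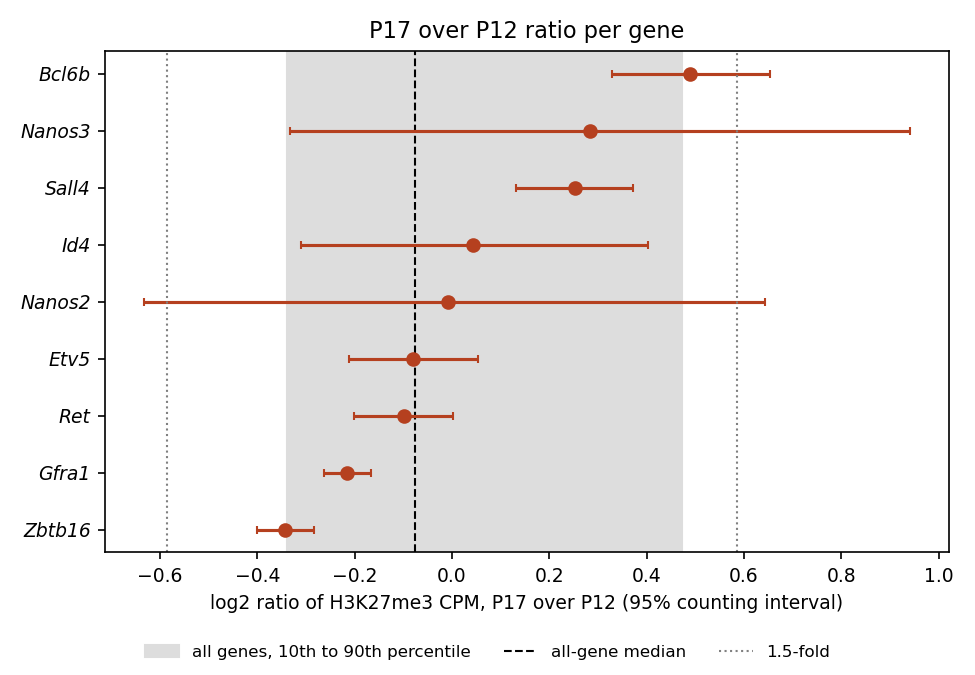
Log2 ratio of H3K27me3 CPM, P17 over P12, of each stem cell gene with its 95% counting interval; the grey band holds the central 80% of all genes (-0.34 to 0.47, from the 10th to the 90th percentile), the dashed line their median (-0.08) and the dotted lines 1.5-fold. The points run from Bcl6b at 0.49 to Zbtb16 at -0.34, and none passes a dotted line.

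The 2 genes with the most reads stood lower among genes of like depth than among all genes. These read classes were chosen after the values had been seen. Zbtb16 and Gfra1 belong to 1433 genes with at least 5000 reads over both files, whose log2 ratios had a median of -0.06 with the central 80% between -0.18 and 0.23. In that class the ratio of Zbtb16 was at percentile 0.628 and that of Gfra1 at percentile 4.82, against 9.79 and 23.7 among all genes. The class spreads less than all genes, whose central 80% spanned -0.34 to 0.47. A ratio well below the median therefore takes a lower percentile in it, whichever the gene. Among 6443 genes with 1000 to 5000 reads, Bcl6b was at percentile 88.9, Sall4 at 78.5, Etv5 at 45.1 and Ret at 41.1.

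Several paralogs of the stem cell genes had higher ratios than the stem cell genes themselves. Of 14 paralogs, 5 were past 1.5-fold higher and 1 lower at P17, beside 6.67% and 1.39% of all genes, with a median of 0.34. In 15 comparisons of a stem cell gene with its own paralog, the ratio of the stem cell gene was lower beyond counting error in 9 and higher in 0. The number was 8 when intervals were widened for 15 comparisons. The pairing of genes into these comparisons was made after the ratios had been seen, so the count is a description. Some stem cell genes enter several comparisons, and the same count for pairs of other genes was not computed. Intervals of 12 of the 14 paralogs lay wholly above the all-gene median and 2 wholly below it, beside 21.2% and 10.1% of all genes. The count thus also holds the high ratios of the paralogs.

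The Id genes gave the widest contrast. Id3 had 39.7 CPM at P17 and 13.4 CPM at P12 (1058 and 180 reads at P17 and P12), a log2 ratio of 1.57 (1.34 to 1.81). Id2 had 11.4 CPM at P17 and 4.75 CPM at P12, with an interval of its log2 ratio from 0.86 to 1.67. Id1 stood at 0.77 (0.37 to 1.20), while Id4 stood at 0.04. Id4 was below Id3 by a log2 difference of -1.53 (-1.95 to -1.09) and below Id2 by -1.21 (-1.76 to -0.67). Its difference from Id1 was -0.73 (-1.29 to -0.18) and included 0 once widened (-1.56 to 0.08). Id2 and Id3, with 21 and 19 CG in their promoters, were less CG-rich than Id4 with 39, and Id1 had no promoter count. The other paralogs with a CG count, each with its count and log2 ratio, were Sall1 (39, 0.34), Nanos1 (34, 0.47) and Bcl6 (31, 1.37). Further down came Etv1 (12, 0.34), Sall2 (10, 0.76), Zbtb32 (10, -0.62) and Gfra4 (6, -0.41). A link of CG count to the ratios of paralogs was not tested. All 4 Id genes encode inhibitors of basic helix-loop-helix factors.

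Bcl6b was below its paralog Bcl6, the repressor gene of germinal centre B cells, by -0.88 (-1.09 to -0.67). Bcl6 itself had 112 CPM at P17 and 43.1 CPM at P12, a log2 ratio of 1.37. Etv5 was below both other genes of its ETS subfamily, Etv1 at 0.34 and Etv4 at 0.33, by -0.42 (-0.60 to -0.24) and -0.41 (-0.60 to -0.22). Gfra1 was below the neurturin coreceptor gene Gfra2 at 0.17 by -0.38 (-0.48 to -0.28) and below the artemin coreceptor gene Gfra3 at 0.11 by -0.33 (-0.48 to -0.17). Against the persephin coreceptor gene Gfra4, at -0.41, the difference of 0.20 (-0.06 to 0.46) included 0.

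Sall4 stood with Sall1 and Sall3. Its ratio differed from that of Sall1 at 0.34 by -0.09 (-0.24 to 0.07) and from that of Sall3 at 0.24 by 0.01 (-0.14 to 0.17), while Sall2 at 0.76 was higher than Sall4 by more than counting error (-0.51, -0.69 to -0.33). Zbtb16 and its paralog Zbtb32, at -0.62 on 96 reads at P17 and 75 at P12, were both low, and their difference of 0.29 (-0.17 to 0.74) included 0. Nanos1 stood at 0.47 (0.10 to 0.85), and its differences from Nanos2 (-0.48, -1.22 to 0.28) and Nanos3 (-0.18, -0.92 to 0.58) were not resolved.

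**Figure D3:**
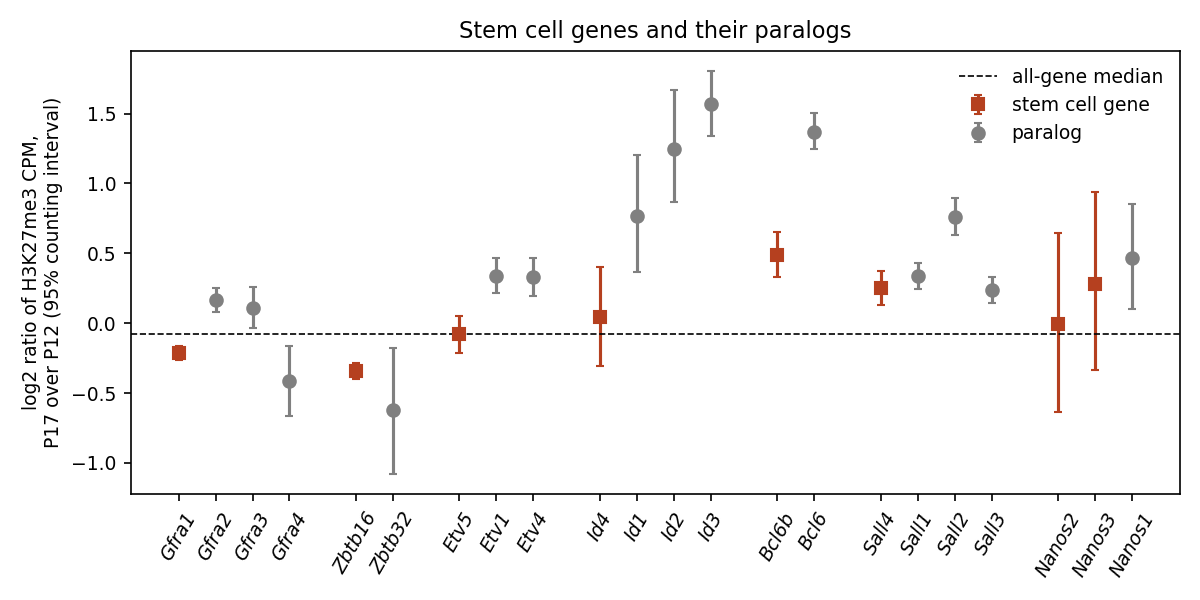
Log2 ratio of H3K27me3 CPM, P17 over P12, with 95% counting intervals, for the stem cell genes (red squares) and their paralogs (grey circles), grouped by family; the dashed line is the all-gene median of -0.08. Id4 at 0.04 and Bcl6b at 0.49 lie below Id3 at 1.57 and Bcl6 at 1.37, whereas Sall4 at 0.25 lies beside Sall1 and Sall3.

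The ratios of the stem cell genes were next set beside those of the 2 nearest protein-coding genes with reads on each side. Gene order was taken from RefSeq on a later build than the files, without coordinates. Of the 9 genes, 4 had a ratio above and 5 a ratio below the median of their 4 neighbours, with a median difference of -0.02, against 0.00 for 19505 genes treated alike. The split was 4 above and 5 below with 1 gene on each side and 5 above and 4 below with 5. The sign of the difference held over these 3 choices for Gfra1, Zbtb16, Id4 and Nanos3 and turned for the other 5 genes. No stem cell gene had an interval clear of the intervals of all 4 neighbours.

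Zbtb16 lay among genes with similarly low ratios. Its neighbours were Nnmt at -0.35 and Rbm7 at -0.27 on one side and the serotonin receptor subunit genes Htr3a at -0.26 and Htr3b at -0.35 on the other, and Zbtb16 differed from their median by -0.04. The intervals of Nnmt (-0.58 to -0.12) and Htr3b (-0.52 to -0.17) lay below the all-gene median of -0.08. Those of Rbm7 (-0.72 to 0.19) and Htr3a (-0.49 to -0.02) included it. Bcl6b lay beside the monocarboxylate transporter family genes Slc16a13 at 0.99 (0.69 to 1.31) and Slc16a11 at 0.89 (0.70 to 1.09). Both ratios were above that of Bcl6b, and both intervals were clear of its own. On its other side stood 0610010K14Rik at 0.58 and Rnasek at -0.47, each with under 100 reads over both files.

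Sall4 lay between Atp9a at -0.11 and the zinc finger gene Zfp64 at 0.89 (0.71 to 1.07), with Nfatc2 at 0.40 and Tshz2 at 0.13 beyond them. Its difference from the neighbours' median was -0.02, but 0.25 with 5 genes on each side. By point value Gfra1 was below Atrnl1 (-0.11), Trub1 (-0.06), Ccdc172 (-0.21) and the pancreatic lipase gene Pnlip (0.35), by -0.13 from their median, or -0.05 with 1 gene on each side. Its interval was clear of those of Atrnl1 and Pnlip and overlapped those of Trub1 (-0.24 to 0.13) and Ccdc172 (-0.36 to -0.06). Ret differed from its neighbours' median by 0.06, Etv5 by -0.12, Id4 by 0.13 and Nanos2 by 0.04. Nanos3, at 0.43 above its neighbours' median, was the 1 gene above all 4 neighbours, on 75 reads at P17 and 31 at P12. Its difference was at percentile 87.8 among all genes treated alike. With 5 genes on each side Nanos3 was no longer above all of its neighbours. The share of all genes that lie above all 4 neighbours was not computed.

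**Figure D4:**
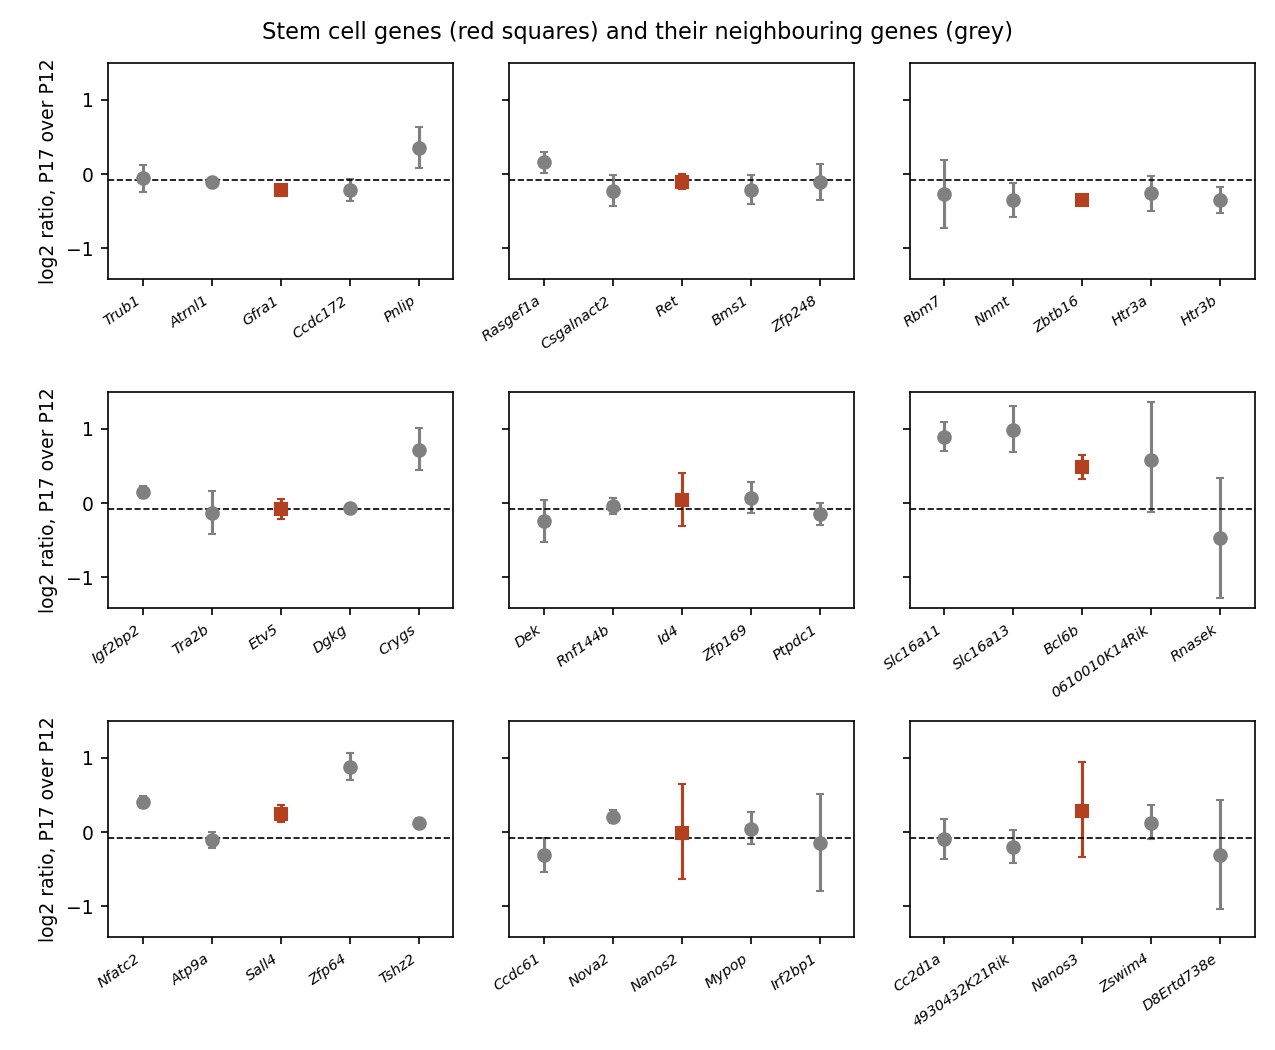
Log2 ratio of H3K27me3 CPM, P17 over P12, with 95% counting intervals, of each stem cell gene (red square) and of the 2 nearest protein-coding genes on each side (grey circles) in genomic order; the dashed line is the all-gene median of -0.08. Zbtb16 at -0.34 sits level with its neighbours, and Bcl6b at 0.49 sits below Slc16a13 at 0.99 and Slc16a11 at 0.89.

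For the 5 genes with a promoter sequence, a relation of the ratio to the CG count was not tested. Bcl6b and Zbtb16, which had the highest and lowest ratio of the group, had no sequence. Id4, with 39 CG, and Nanos2, with 0, had log2 ratios of 0.04 and -0.01, which differed by 0.05 (-0.70 to 0.78). That interval is too wide to say whether their ratios differ. Over 17010 genes split into 5 classes of near-equal size by promoter CG count, the median log2 ratio was -0.11, -0.06, -0.06, -0.09 and -0.10 from the lowest to the highest class. Within its own class, Gfra1 was at percentile 21.8, Etv5 at 54.2, Id4 at 71.7, Nanos2 at 64.8 and Nanos3 at 86.6.

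In other lists of the same biology, the counts past 1.5-fold are to be read beside 6.67% of all genes higher and 1.39% lower at P17. In a list of 30 GDNF and FGF signalling genes the median log2 ratio was 0.02, with 5 past 1.5-fold higher and 0 lower at P17. It ran from the proto-oncogene Mycn at 1.22 (0.97 to 1.49) to the kinase gene Pik3ca at -0.25. Of 31 further genes of undifferentiated spermatogonia, 6 were past 1.5-fold higher and 0 lower, with a median of 0.21. The chemokine receptor gene Cxcr4 was highest at 2.20 (1.84 to 2.59), with 23.3 CPM at P17 and 5.05 CPM at P12, and the piRNA pathway gene Piwil4 was lowest at -0.31. Among 15 genes of differentiating spermatogonia 2 were higher and 1 lower, with a median of 0.26, from Prdm1, better known as a regulator of primordial germ cells, at 0.64 to Rhox13 at -0.73 on 52 reads at P17 and 44 at P12. The difference between these lists and the 9 genes was not tested.

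The genes most like Bcl6b and Zbtb16 over the 2 libraries, by Euclidean distance in log2 CPM, were of diverse kinds. Reads were not divided by gene length here either. The likeness is thus one of read share in the 2 libraries and not of the density of the mark. Nearest to Bcl6b were Paqr8 (distance 0.012), Vsig10 (0.022) and Fam102a (0.038), and nearest to Zbtb16 were Wdfy4 (0.024), Disc1 (0.041) and Pde10a (0.074).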

How the data were processed

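The H3K27me3 files hold unnormalized counts of reads for each gene symbol, made by the authors over gene bodies with multiBamCov, per the file names, with no input subtraction recorded. Reads were handled with Bowtie, SAMtools and HTSeq on mm9, per the submitters' processing notes; no version is named in them. The 5 peak lists are in mm9 and were not used, because no mm9 annotation was at hand to place peaks on genes. Reads of genes that overlap a member, such as Gm10007 in Gfra1, cannot be told apart from its own.

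Counts were scaled to the column total (CPM; 26664736 reads at P17, 13462873 at P12). The log2 ratio P17/P12 used a pseudocount of 1 read, in proportion to library size, and its exact conditional (Clopper-Pearson) 95% interval covers counting error only. Differences between genes used the exact conditional odds ratio. Genes had 1 entry and at least 20 reads; 310 entries of 146 repeated symbols stayed in the totals only. Python 3.11.15, SciPy 1.17.1, pandas 2.3.3, R 4.3.3 and edgeR 4.0.16 (TMM factors only) were used. Intervals were tested on simulated counts that held counting error only, which is what the intervals assume. That test cannot speak to variation between animals or immunoprecipitations. Named genes were the 9 members, their neighbours, their paralogs, the extremes of each list among genes with at least 50 reads, and the 3 genes nearest in level to the members with the highest and lowest ratio. The members and lists were chosen with earlier results of these data known. Alternatives were other scalings, read minimums of 1 and 100, pseudocounts of 0.5 and 5 reads, thresholds of 0.32 and 1 in log2, 1 or 5 neighbours on each side and a shorter promoter window.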

Additional observations from a re-analysis of the deposited data

How the results depend on the processing

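Bcl6b and Sall4 lay above, and Gfra1 and Zbtb16 below, the all-gene median under the read minimums and pseudocounts tried. Scalings move all genes alike and cannot alter this. TMM, median-of-ratios, receptor-gene and all-gene-median scaling raised each log2 ratio by 0.08, 0.08, 0.09 and 0.08, to -0.27, -0.26, -0.25 and -0.27 for Zbtb16 and -0.14, -0.14, -0.12 and -0.14 for Gfra1. Nanos2 then stood just above 0, and so did Etv5 with receptor-gene scaling. With totals leaving out repeated symbols and the 20 entries with most P12 reads, the interval of Ret also lay below a ratio of 1. At a log2 threshold of 0.32, 1 member was higher and 1 lower, and at 2-fold 0 and 0. Over all genes, 1454 were higher past 1.5-fold, against 2589 at 0.32 and 561 at 2-fold, and 304 were lower, against 1344 and 73. The lower count was 192 with TMM, 187 with median-of-ratios, 170 with receptor-gene and 189 with all-gene-median scaling, and 157 with a minimum of 100 reads. A minimum of 100 reads also dropped Nanos2. Differences from neighbours moved most for Sall4, to -0.14 with 1 and 0.25 with 5 genes on each side, and for Bcl6b, to 0.14 with 5; that of Etv5 was 0.02 and that of Nanos2 -0.14 with 1, and that of Ret -0.04 with 5. No paired analysis was possible because each stage has 1 file. Without replicate spread, and with the inputs not analysed here, variation between animals and enrichment over background cannot be told apart from an effect of stage. The 98 reads of Nanos2 and 106 of Nanos3 leave their ratios unresolved.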
